A study of Rattus norvegicus with 18 samples.

Results

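Shock-sensitive rats were compared with control rats for gene expression in the nucleus accumbens, which forms the ventral striatum. The series profiles methamphetamine self-administration in rats with footshock as the adverse consequence, and the group names come from the sample titles. The comparison uses 12 of the 18 arrays, 6 shock sensitive and 6 control, with 1 rat on each array. The other 6 arrays, of shock-resistant rats, share the estimate of the spread and are set beside single results. Every rat was a male Sprague-Dawley of 350 to 400 g, and the series kept 6 rats per group on the quality of their RNA. In this kind of experiment shock-sensitive animals cut their drug intake once pressing is punished, while shock-resistant animals go on. The sources used here do not give what the control rats received, the age of the rats, the time between the last session and tissue collection, or the hour of collection. Values are on a log2 scale for 22093 genes, so a difference of 1 is a doubling, and each difference is shock sensitive minus control.

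The nucleus accumbens is built mostly of medium spiny neurons, inhibitory projection cells driven by cortical glutamate and tuned by dopamine, opioid peptides and adenosine. Psychostimulants and aversive events switch on immediate early genes in these cells, transcription factor genes of the FOS, EGR and NR4A families among them. The same cells run a circadian clock, in which BMAL1 with CLOCK or NPAS2 activates the Per and Cry genes and their proteins shut that activation off. MicroRNAs are short RNAs that pair with messenger RNAs through their seed, the bases near their 5′ end, and lower their output.

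The arrays were alike in overall level, and they differed in tissue content. The array median over all features was 5.44 to 5.53 in shock-sensitive rats and 5.43 to 5.49 in controls. Pairs of these arrays correlated at 0.994 to 0.997 across features, which share probes and scale and are not replicates. The median of the 1153 negative control features set a background of 6.37, and 47.6% of the genes averaged below it over all 18 arrays. The negative control median of each of the 12 arrays, 6.27 to 6.52, lay above the median of all its features. Background is thus a reference level and no floor of the signal. The mean of 24 measured markers of medium spiny neurons was 10.31 in shock-sensitive replicate 4 and 11.07 to 11.82 in the other shock-sensitive rats, against 10.39 in control replicate 1 and 11.36 to 11.95 in the other controls. The mean of 20 markers of hypothalamic and septal neurons stood highest on the same arrays, at 7.95 in shock-sensitive replicate 4 against 6.66 to 7.11 in its group, and at 7.76 in control replicate 1 against 6.52 to 7.10 in its group. These arrays stand apart, 1 in each group, and genes and lists that move with the striatal markers are also given without both.

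**Figure D1:**
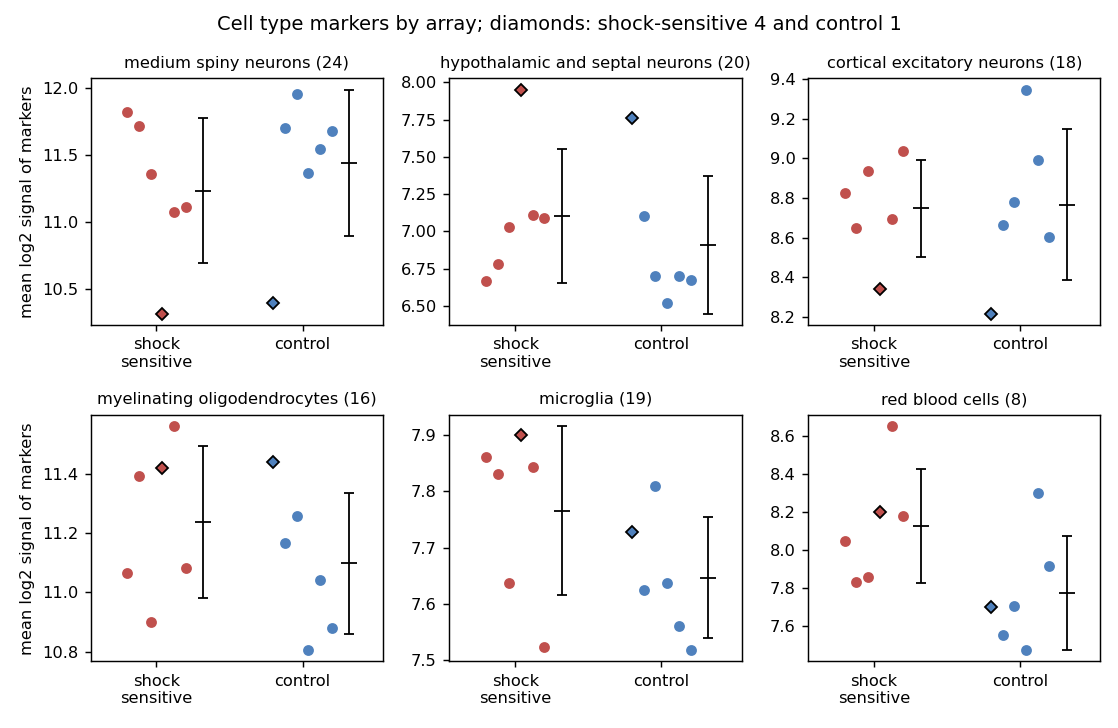
Mean log2 value of 6 lists of cell type markers on each array, shock-sensitive rats left of controls, with the group mean and SD as bars and diamonds for shock-sensitive replicate 4 and control replicate 1. The diamonds lie lowest for medium spiny neurons, at 10.31 and 10.39, and highest for hypothalamic and septal neurons, at 7.95 and 7.76.

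The marker lists describe the tissue in both groups. Medium spiny neuron markers averaged 11.23 ± 0.54 in shock-sensitive rats and 11.44 ± 0.55 in controls (SD, n = 6 each), and 21 of 24 members read lower in shock-sensitive rats. The median member difference of the medium spiny neurons list was −0.23, beside 0.013 over all genes, −0.009 without shock-sensitive replicate 4, −0.46 without control replicate 1 and −0.25 without both. In bulk tissue fewer cells of a type and less RNA per cell cannot be told apart. Ppp1r1b, the DARPP-32 gene of medium spiny neurons, was read at 9.69, 10.95 and 11.68 (lowest, median and highest) in shock-sensitive rats and at 9.77, 11.26 and 12.22 in controls. Slc17a7, which loads glutamate into the vesicles of cortical neurons, was read at 6.43, 8.59 and 10.46 in shock-sensitive rats and at 6.34, 6.94 and 10.54 in controls. The Slc17a7 ranges overlapped almost fully, while the Ppp1r1b controls reached above every shock-sensitive array. Without both arrays the differences were −0.28 for Ppp1r1b and 0.61 for Slc17a7. Mbp, a myelin protein gene, differed by 0.07 ± 0.11 (SE), and Gfap, the astrocyte filament gene, by 0.24 ± 0.21, or 0.04 without both arrays. Aif1, a microglial gene, lay below background in every array of both groups, at 5.50 to 5.68 and 5.43 to 5.61. Of the 24 striatal markers 22 lay at or above background on these arrays.

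No single gene passed the adjusted threshold between shock-sensitive rats and controls. In limma, with Benjamini-Hochberg adjustment over all 22093 genes, 0 genes (0%) reached an adjusted p under 0.05, and the smallest was 0.214. At an unadjusted p under 0.05 there were 1345 genes (6.09%), 1008 higher (4.56%) and 337 lower (1.53%). Adding a fold of 1.3 or more to that p gave the nominal criterion, which 59 genes met (0.267%), 36 of them higher (0.163%) and 23 lower (0.104%). All shock-sensitive arrays lay above all control arrays for 76 genes (0.344%) and below them for 8 (0.0362%), so that the groups did not overlap for 84 genes in all (0.38%). For that reason "higher" and "lower" below state which way the values lay, with no call over all genes.

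The surplus on the higher side sat among genes with little signal. Of the 10507 genes below background on these 12 arrays, 846 on the higher side and 103 on the lower had an unadjusted p under 0.05, with a median difference of 0.037. Of the 11586 genes at or above background, 162 were higher and 234 lower, with a median of −0.012. The split followed the scaling of the arrays. Higher genes made up 74.9% of those under that p as deposited, 57.6% after quantile normalization and 49.8% after centring each array on its median. The median over all genes was 0.013, 0.0055 and −0.011 in the same order.

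Most clock genes read lower in shock-sensitive rats. Of 24 listed clock genes 21 were measured and 16 read lower in shock-sensitive rats, with a median difference of −0.16 beside 0.013 over all genes. At an unadjusted p under 0.05 Per1, Per2, Per3, Cry1 and Bhlhe40 were lower (5 of 21, or 23.8%, beside 1.53% of all genes) and Nr1d1 was higher (1 of 21, or 4.76%, beside 4.56%). None passed after adjustment. At or above background, where 20 of the 21 clock genes lay, 1.398% of all genes were higher and 2.02% lower at that p. The median difference of such genes was −0.012. With both arrays of low striatal content left out, 9 members of the circadian clock list were lower and 2 higher at that p, and the list median was −0.17. With each array left out in turn the median was −0.21 to −0.094.

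The period genes encode the proteins that repress BMAL1. Per2 was read at 7.63, 7.74 and 7.82 in shock-sensitive rats (lowest, median, highest) and at 7.89, 8.18 and 8.43 in controls. The ranges did not overlap, every shock-sensitive array lying below the lowest control. The difference was −0.41 ± 0.087 (SE), or 1.33-fold lower, with a limma adjusted p of 0.403. It was −0.48 without both arrays of low striatal content and −0.46 to −0.35 with any 1 array left out. Shock-resistant rats, at 7.63 to 7.97, overlapped both groups.

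Per1, whose transcription also responds acutely to cyclic AMP, was read at 8.55, 8.76 and 8.90 in shock-sensitive rats and at 8.68, 9.13 and 9.32 in controls. The groups overlapped, and the difference was −0.34 ± 0.11 (limma adjusted p = 0.623). Shock-resistant rats read 8.47 to 9.12 for Per1, and shock-sensitive minus shock-resistant was −0.04. Per3, the least essential of the period genes for rhythm in mice, was read at 8.92, 9.25 and 9.67 in shock-sensitive rats and at 9.16, 9.61 and 10.14 in controls, a difference of −0.35 ± 0.14. Cry1, a cryptochrome that joins the PER proteins in repression, was read at 7.37, 7.51 and 7.64 in shock-sensitive rats and at 7.58, 7.64 and 7.91 in controls. Its difference was −0.18 ± 0.061, and that of its paralog Cry2 was −0.13. Per3 and Cry1 also overlapped between groups.

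Bhlhe40 and Bhlhe41 encode repressors that bind the same E-box sites as the clock activators. Bhlhe40 was read at 9.45, 9.58 and 9.72 in shock-sensitive rats and at 9.63, 9.90 and 10.20 in controls. Of 6 shock-sensitive arrays 4 lay below every control, and the difference was −0.33 ± 0.083 (limma adjusted p = 0.425). Shock-resistant rats read as low for Bhlhe40, at 9.33 to 9.75, and shock-sensitive minus shock-resistant was 0.01. From controls Bhlhe41 differed by −0.19, and Ciart, a repressor that binds BMAL1, by −0.19.

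The activators and the second loop of the clock lay differently. Bmal1 was read at 9.47, 9.67 and 9.79 in shock-sensitive rats and at 9.20, 9.52 and 9.76 in controls, a difference of 0.17 ± 0.085. Shock-resistant rats read 9.86 to 10.21 for Bmal1, above every shock-sensitive array, and shock-sensitive minus shock-resistant was −0.36 (limma adjusted p = 0.664). Clock differed by 0.01 ± 0.042 from controls and Npas2 by −0.08 ± 0.21. Nr1d1, the REV-ERB alpha repressor of Bmal1, was read at 9.11, 9.43 and 9.72 in shock-sensitive rats and at 9.02, 9.17 and 9.36 in controls, a difference of 0.23 ± 0.11. Nr1d2, its paralog, differed by −0.16, so the REV-ERB genes lay in opposite directions. Rora and Rorb, which activate Bmal1 from the same sites, differed by −0.10 and 0.06.

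Among the output genes the largest difference was that of Hlf, a PAR-domain transcription factor gene. It was read at 10.50, 11.28 and 11.78 in shock-sensitive rats and at 10.68, 11.93 and 12.07 in controls. The ranges overlapped because control replicate 1 stood at 10.68 while the other controls stood at 11.78 or above. The difference was −0.45 ± 0.24. It was −0.66 without control replicate 1, −0.30 without shock-sensitive replicate 4 and −0.51 without both. Its relatives Dbp and Tef each differed by −0.16, and Dbp by −0.28 without both. Nfil3, which competes with them for D-box sites, lay below background and differed by 0.05. The clock kinase genes Csnk1d and Csnk1e differed by −0.03 and −0.08.

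**Figure D2:**
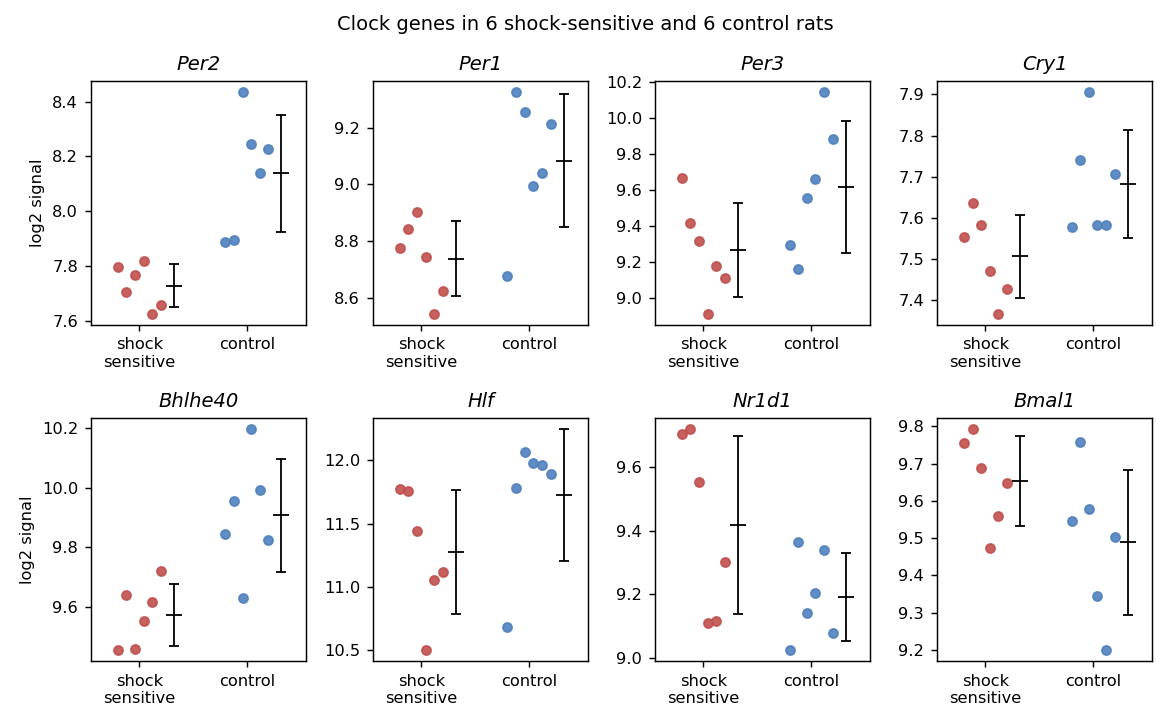
Log2 value of 8 clock genes on each array, shock-sensitive rats left of controls, with the group mean and SD as bars. The Per2 panel has no overlap, at 7.63 to 7.82 against 7.89 to 8.43, and the Nr1d1 and Bmal1 panels run the other way.

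Promoters of the clock genes were read to show the sequence context of the list, whichever way its members lay. CLOCK and BMAL1 bind the E-box CACGTG and its variant CACGTT, here called the E-prime box. Both were searched on both strands in the window from 250 bases before to 50 after each gene's start in RefSeq's GRCr8 annotation of the rat. CACGTG was in 4 of 18 matched clock promoters (22.2%) and in 2148 of 33469 promoters (6.42%). CACGTT was in 3 of 18 (16.7%) and in 1618 of 33469 (4.83%). The clock genes with CACGTT were Cry2, Per2 and Nr1d1, and Nr1d1 read higher in shock-sensitive rats. The windows of Per2 and Bhlhe40 are printed because these were the clock genes with the smallest p, with the match in capitals. The Per2 window lies on the minus strand at chr9:99496944-99497243 and that of Bhlhe40 on the plus strand at chr4:143174200-143174499. A match is a description of letters, and binding was not measured.
Per2: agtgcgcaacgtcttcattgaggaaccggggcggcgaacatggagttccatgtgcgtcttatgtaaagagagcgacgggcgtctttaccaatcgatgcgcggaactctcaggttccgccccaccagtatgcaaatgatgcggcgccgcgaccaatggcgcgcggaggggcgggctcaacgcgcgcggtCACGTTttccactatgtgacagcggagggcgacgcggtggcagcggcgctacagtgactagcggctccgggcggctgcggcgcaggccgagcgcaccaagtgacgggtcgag
Bhlhe40: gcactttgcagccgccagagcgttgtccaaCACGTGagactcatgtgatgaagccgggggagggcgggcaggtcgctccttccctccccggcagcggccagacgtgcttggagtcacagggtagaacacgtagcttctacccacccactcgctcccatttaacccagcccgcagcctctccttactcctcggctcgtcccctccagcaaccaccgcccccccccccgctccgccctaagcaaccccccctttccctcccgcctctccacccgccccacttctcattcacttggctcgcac
The windows of Per1 and Per3, printed for neither, held neither motif, and the Ciart window held CACGTG 3 times. Cry1 had no matched window.

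Immediate early genes also read lower in shock-sensitive rats, and 1 array in each group weighed on their values. Of the 15 FOS, JUN, EGR and NR4A genes, 14 read lower, with a median difference of −0.21 beside 0.013 over all genes. The members at an unadjusted p under 0.05 were Egr1, Egr2, Nr4a3 and Fosl1, all lower (4 of 15, or 26.7%, beside 1.53% of all genes), and Fosl1 lay below background. Control replicate 2 had the highest mean of this list, 7.87 against 6.99 to 7.22 in the other controls and 6.63 to 7.12 in shock-sensitive rats. Without it the FOS, JUN, EGR and NR4A genes had a median of −0.15 with 2 members lower at that p. Shock-sensitive replicate 1 had the lowest mean of this list, 6.63 against 6.795 to 7.12 in the other shock-sensitive rats.

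The EGR genes encode zinc finger factors that follow synaptic activity. Egr2 was read at 5.73, 6.12 and 6.28 in shock-sensitive rats and at 6.19, 6.47 and 8.20 in controls. The ranges overlapped narrowly. All shock-sensitive arrays lay below the background of 6.37. With background in place of their values, shock-sensitive rats lay at least 1.26-fold below controls, whose mean was 6.70. That mean was raised by control replicate 2, at 8.20, while the other controls read 6.19 to 6.65, so the bound rests on that array. The fitted difference was −0.63 ± 0.25 (limma adjusted p = 0.797), or −0.33 without control replicate 2, and is no measured fold. Egr1 was read at 10.00, 10.69 and 11.09 in shock-sensitive rats and at 10.57, 11.03 and 12.25 in controls, a difference of −0.49, or −0.27 without control replicate 2. Egr1 was chosen after its values were seen, and its ranges overlapped.

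Nr4a3, an orphan nuclear receptor gene, was read at 6.60, 7.08 and 7.53 in shock-sensitive rats and at 7.24, 7.53 and 8.59 in controls. The difference was −0.58 ± 0.24, −0.40 without control replicate 2 and −0.48 without shock-sensitive replicate 1. For Nr4a3 shock-sensitive minus shock-resistant was −0.68. Its paralogs differed by −0.54 ± 0.27 for Nr4a1 and 0.12 for Nr4a2, and both were chosen after their values were seen. Nr4a2 was the 1 member of the list that read higher. The Nr4a1 difference was −0.35 without control replicate 2 and −0.43 without shock-sensitive replicate 1. Fos, the classic marker of neuronal activation, was chosen after its values were seen. It was read at 5.55, 6.80 and 7.06 in shock-sensitive rats and at 6.28, 7.15 and 8.62 in controls. The Fos difference was −0.63 ± 0.33, −0.36 without control replicate 2 and −0.41 without shock-sensitive replicate 1. Npas4, an activity-dependent factor gene also chosen after the values were seen, differed by −0.20 ± 0.31, or −0.04 without both arrays of low striatal content.

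Most effectors of activity also read lower, with a list median nearer 0. Of 17 measured members of the list of activity-regulated effectors 13 read lower, with a median of −0.13, and Arc and Dusp6 were lower at an unadjusted p under 0.05 (2 of 17, or 11.8%, beside 1.53% of all genes). Arc, which encodes a cytoskeletal protein that removes AMPA receptors from synapses, was read at 8.24, 8.94 and 9.20 in shock-sensitive rats and at 8.39, 9.39 and 10.45 in controls. Its difference was −0.64 ± 0.30 (limma adjusted p = 0.807), or −0.43 without control replicate 2. Dusp6, a phosphatase of the ERK kinases, was read at 6.48, 6.65 and 6.78 in shock-sensitive rats and at 6.75, 6.81 and 7.06 in controls, a difference of −0.20 ± 0.08. Homer1, a postsynaptic scaffold gene, differed by −0.41 ± 0.20, by −0.24 without shock-sensitive replicate 4, by −0.56 without control replicate 1 and by −0.39 without both. Without control replicate 2 the activity-regulated effectors had 0 members lower at that limma p, 0 after adjustment, and a median of −0.051.

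**Figure D3:**
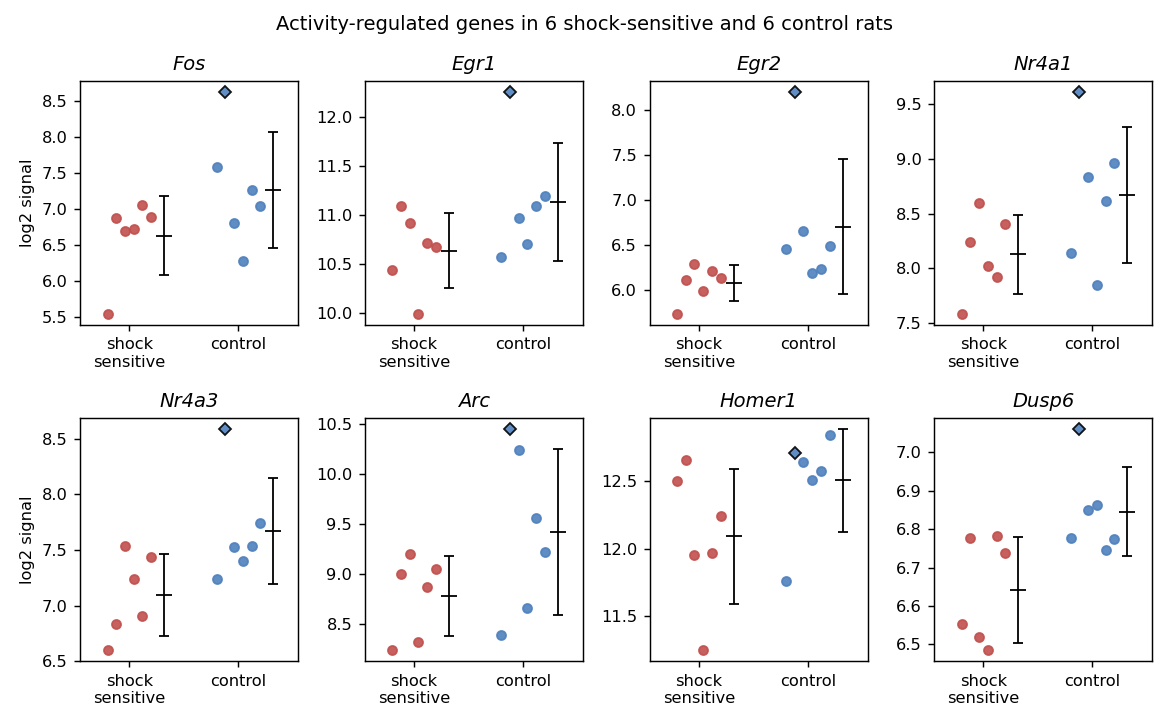
Log2 value of 8 activity-regulated genes on each array, shock-sensitive rats left of controls, with the group mean and SD as bars and control replicate 2 as a diamond. The diamond is the highest control for Egr2, at 8.20, and for Nr4a3, at 8.59, and the rest of the controls lie closer to the shock-sensitive arrays.

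The cyclic AMP element TGACGTCA, to which CREB binds, and its core TGACG were searched in the same promoter windows on both strands, every TGACGTCA also holding TGACG. TGACGTCA was in 1 of 11 matched promoters of the FOS, JUN, EGR and NR4A genes (9.09%), in 3 of 13 of the effectors (23.1%) and in 1.83% of all promoters. TGACG was in 8 of 11 (72.7%), in 8 of 13 (61.5%) and in 21.2% of all promoters. Egr1 and Egr2 were among the 8 of the first list.

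Most glucocorticoid targets read lower as well. Of 16 measured glucocorticoid-responsive genes 13 read lower, with a median of −0.078, and Sult1a1 and Fkbp5 were lower at an unadjusted p under 0.05 (2 of 16, or 12.5%, beside 1.53% of all genes). Sult1a1, a sulfotransferase gene, was read at 6.53, 7.03 and 7.32 in shock-sensitive rats and at 6.93, 7.46 and 7.70 in controls, a difference of −0.40 ± 0.17. Fkbp5, a co-chaperone of the glucocorticoid receptor, was read at 8.23, 8.37 and 8.46 in shock-sensitive rats and at 8.18, 8.57 and 8.76 in controls, a difference of −0.18 ± 0.085. Both overlapped. Klf9, a transcription factor gene induced by the receptor, differed by −0.37 ± 0.18, or −0.23 without control replicate 3. Without control replicate 3 the median of the glucocorticoid-responsive genes was 0.0065, and 8 read higher and 8 lower.

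MicroRNA genes took 6 of the 12 places among named genes with the smallest p at or above background on the higher side. Of 382 microRNA genes on the array 106 lay at or above background, and 0 passed after adjustment. At an unadjusted p under 0.05 in limma 40 were higher (10.5%, beside 4.56% of all genes) and 9 lower (2.36%, beside 1.53%), with a median difference of 0.051 beside 0.013. Most microRNA genes lay below background, where 8.05% of all genes were higher and 0.98% lower at that p, with a median of 0.037. After quantile normalization or centring the microRNA genes had 32 higher and 15 lower. Among the 106 at or above background 15 were higher and 0 lower, beside 1.398% and 2.02% of all such genes. The sources used here do not say whether a feature reads the hairpin precursor or the mature strand.

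The mature strands of the microRNAs with the smallest p, and of relatives with the same seed, are printed from RefSeq's GRCr8 annotation, which held 14 of the 15 microRNA genes named. Capitals mark the seed, bases 2 to 8 from the 5′ end. The miR-29 strands share the seed AGCACCA, as the miR-103 and miR-107 strands share GCAGCAU. Mir29a, Mir29b1, Mir29c, Mir9-2, Mir9-3 and Mir103a2 were added as relatives after values were seen.
rno-miR-29b-3p: uAGCACCAuuugaaaucaguguu
rno-miR-29a-3p: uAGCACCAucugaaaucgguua
rno-miR-29c-3p: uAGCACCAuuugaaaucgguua
rno-miR-9a-5p: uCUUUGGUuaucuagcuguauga
rno-miR-107-3p: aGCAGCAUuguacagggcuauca
rno-miR-103-3p: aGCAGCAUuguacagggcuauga
rno-miR-466c-3p: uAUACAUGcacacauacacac
rno-miR-378a-3p: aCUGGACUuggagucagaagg
rno-miR-105: cAAGUGCUcagaugucuguggu
For Mir29b2 the mature strand lies on the plus strand at chr13:109098882-109098904, and for Mir29a on the minus strand at chr4:60617968-60617989. For Mir9-1 it lies on the plus strand at chr2:175974986-175975008 and for Mir107 on the minus strand at chr1:241750431-241750453.

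The miR-29 family, known for targeting collagen and DNA methyltransferase messages, gave unequal values. Mir29b2 was read at 8.63, 8.67 and 8.88 in shock-sensitive rats and at 8.02, 8.32 and 8.56 in controls. Every shock-sensitive array lay above every control, and the difference was 0.41 ± 0.094 (limma adjusted p = 0.403). Against shock-resistant rats the difference of Mir29b2 was 0.37. Mir29a was read at 5.80, 6.18 and 7.20 in shock-sensitive rats and at 5.08, 5.48 and 5.99 in controls. The fitted difference was 0.86 ± 0.21 at levels mostly below background, and is no measured fold. With background in place of the controls, which all lay below it, Mir29a stood at least 1.0003-fold higher. Mir29b1, whose mature strand has the same letters as that of Mir29b2, differed by 0.28 ± 0.23, and Mir29c by 0.02 ± 0.18.

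The paralogs that make miR-9, a regulator of neural differentiation, differed among themselves as well. Mir9-1 was read at 9.16, 9.23 and 9.58 in shock-sensitive rats and at 8.45, 8.82 and 9.31 in controls, a difference of 0.43 ± 0.12 with overlap. Mir9-2 differed by 0.15 ± 0.15 and Mir9-3 by 0.09 ± 0.24. Of the pair with the seed GCAGCAU, which lies in introns of pantothenate kinase genes in humans, Mir107 was read at 6.82, 6.97 and 7.18 in shock-sensitive rats and at 6.22, 6.63 and 6.83 in controls. Its difference was 0.41 ± 0.11, and that of Mir103a2, just below background, was 0.34 ± 0.089.

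Other loci complete the microRNA genes named by their p. Mir466c, a repeat-rich rodent microRNA, was read at 10.95, 11.24 and 11.43 in shock-sensitive rats and at 10.65, 10.75 and 11.08 in controls, a difference of 0.43 ± 0.09 (limma adjusted p = 0.403). Mir105, an X-linked microRNA, was read at 7.63, 7.70 and 7.94 in shock-sensitive rats and at 7.16, 7.42 and 7.58 in controls, and its groups did not overlap (0.35 ± 0.082). Mir378, which lies in the gene of the coactivator PGC-1 beta in mice, was read at 6.48, 6.78 and 6.95 in shock-sensitive rats and at 6.30, 6.45 and 6.52 in controls, with slight overlap (0.34 ± 0.077). Against shock-resistant rats these differences were 0.08, 0.11 and 0.08. Further microRNA genes, chosen after their values were seen, were Mir495 (at least 1.33-fold higher, with background in place of the controls, which all lay below it), Mir181b1 (0.58 ± 0.17) and Mir151 (−0.52 ± 0.22).

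**Figure D4:**
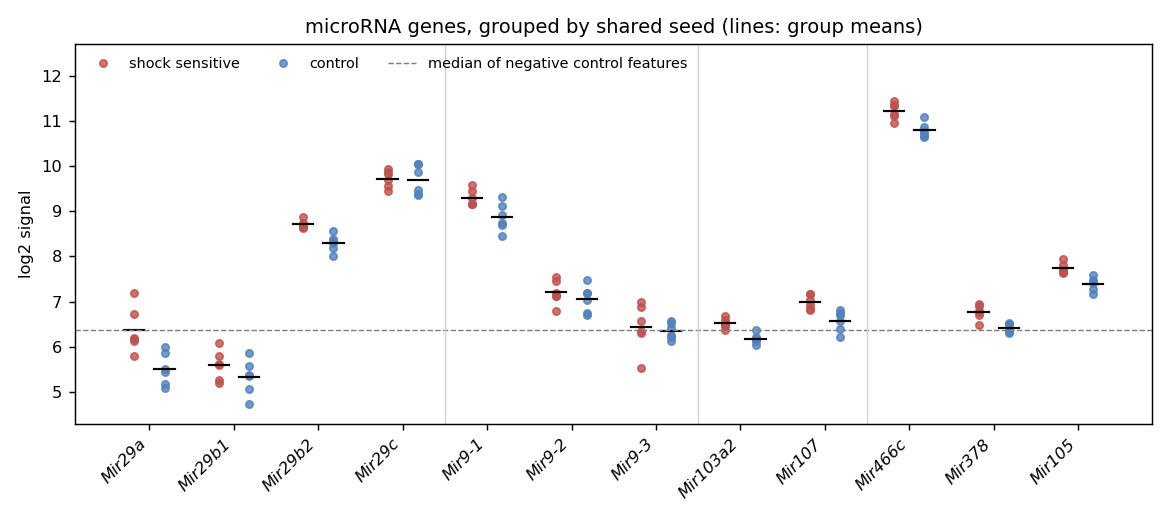
Log2 value of microRNA genes on each array, shock-sensitive rats left of controls, grouped by shared seed, with the group mean as a short line and the negative control median of 6.37 as a dashed line. Mir29b2 and Mir105 separate the groups while Mir29c and Mir9-3 overlap.

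Among protein-coding genes on the higher side, Ist1 read higher in shock-sensitive rats than in either other group. Ist1 encodes a regulator of the ESCRT-III membrane scission machinery. It was read at 9.96, 10.13 and 10.33 in shock-sensitive rats and at 9.51, 9.60 and 10.19 in controls, a difference of 0.44 ± 0.097 (limma adjusted p = 0.403). Control replicate 3, at 10.19, was the 1 control inside the shock-sensitive range. Without that array the difference was 0.54 and the adjusted p 0.00569, the 1 instance in which a gene passed with a single array left out. Against shock-resistant rats the difference of Ist1 was 0.45.

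The other genes with the smallest p on the higher side had mixed roles. Xkr5, a member of the XK-related membrane protein family, was read at 6.61, 6.71 and 6.89 in shock-sensitive rats and at 6.33, 6.44 and 6.56 in controls, with no overlap (0.28 ± 0.062). Scgb1b24, a secretoglobin gene, was read at 11.95, 12.18 and 12.48 in shock-sensitive rats and at 11.64, 11.80 and 11.97 in controls (0.40 ± 0.10). Shock-resistant rats did not separate from shock-sensitive rats in either gene, with differences of 0.03 and −0.15. Wdr5b, a WD-repeat gene, and Wfikkn1, which encodes a secreted inhibitor of myostatin, each stood 0.30 higher, and Phf11b, a PHD finger gene, 0.34. The Wfikkn1 controls averaged 6.23, below background, so that gene ranked here only through the group where it was higher.

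On the lower side, after Per2, Ntmt2 had the smallest p. It encodes an N-terminal methyltransferase and was read at 6.34, 6.73 and 6.999 in shock-sensitive rats and at 6.93, 7.25 and 7.43 in controls, a difference of −0.50 ± 0.11 (limma adjusted p = 0.403). Against shock-resistant rats Ntmt2 differed by −0.41. Rerg, a RAS-like gene first tied to oestrogen response in human breast tissue, differed by −0.39 ± 0.12, and Btbd3, which orients dendrites toward active axons in mice, by −0.40 ± 0.14. Rbm24, an RNA-binding splicing factor gene, differed by −0.36, Cables1, a linker of cyclin-dependent kinases, by −0.32, and Tmem186, a mitochondrial assembly factor gene, by −0.27. Dppa3, a germline gene whose shock-sensitive mean lay below background, differed by −0.38, and Dmtf1l1 and Rpl34l1 by −0.31 each.

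The largest differences at or above background belonged to genes with wide spread. Oxt, the oxytocin precursor of hypothalamic neurons, was read at 5.87, 7.34 and 12.83 in shock-sensitive rats and at 5.86, 6.02 and 10.59 in controls, a difference of 1.33 ± 1.0. The value was 0.39 without shock-sensitive replicate 4, 2.08 without control replicate 1 and 1.14 without both, the arrays with the highest hypothalamic and septal markers. Car3, a carbonic anhydrase gene, was read at 5.92, 6.21 and 6.49 in shock-sensitive rats and at 5.90, 7.40 and 9.34 in controls. Controls 1, 4 and 6 read 9.34, 8.74 and 8.47 for Car3 and the other controls lay within or below the shock-sensitive range, so that the fitted difference was −1.27 ± 0.62, or −0.94 without both. The shock-sensitive mean of Car3, 6.22, lay below background, and the gene ranked here only through those 3 controls.

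Retsat, a retinol saturase gene, was read at 8.68, 8.99 and 10.16 in shock-sensitive rats and at 9.22, 10.40 and 11.00 in controls. Its difference of −1.01 ± 0.39 was −0.97 without both arrays of low striatal content. Lrrc10b, a leucine-rich repeat gene, was read at 6.15, 7.31 and 8.11 in shock-sensitive rats and at 6.12, 8.33 and 9.99 in controls (−0.91 ± 0.47), and stood −1.29 from shock-resistant rats. The Lrrc10b difference from controls was −0.57 without control replicate 3, −1.34 without control replicate 1 and −1.10 without both. Slc39a12, a zinc transporter gene, was read at 6.01, 7.75 and 8.34 in shock-sensitive rats and at 6.15, 6.39 and 7.64 in controls (0.87 ± 0.37). The limma adjusted p of these genes was 0.785 or above.

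Red blood cell genes read higher. All 8 measured red blood cell genes read higher, with a median difference of 0.33 beside 0.013 over all genes, and Hemgn, Alas2 and Hba-a1 did so at an unadjusted p under 0.05 (3 of 8, or 37.5%, beside 4.56% of all genes). That count of red blood cells genes was 2 to 5 with 1 array left out and 1 without both arrays of low striatal content. The list averaged 8.13 ± 0.30 in shock-sensitive rats and 7.78 ± 0.30 in controls (SD, n = 6 each). Globin genes have near-identical copies that probes may not tell apart. Alas2, the erythroid enzyme that starts heme synthesis, was read at 6.41, 6.73 and 7.47 in shock-sensitive rats and at 6.09, 6.26 and 6.80 in controls (0.47 ± 0.17), the control mean lying below background. Hba-a3, an alpha globin gene, was read at 9.36, 9.72 and 11.54 in shock-sensitive rats and at 8.44, 8.73 and 10.35 in controls (0.95 ± 0.40). The part of blood content in the other results was not tested.

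Of 19 measured microglia genes 18 read higher, with a median of 0.11 and 0 at an unadjusted p under 0.05 in limma. Over all genes 12574 of 22093 read higher, with a median of 0.013. Of the microglia genes 10 lay at or above background, and 7550 of the 10507 genes below it read higher. P2ry12, the ADP receptor that marks homeostatic microglia, was read at 8.80, 9.43 and 9.72 in shock-sensitive rats and at 8.28, 8.97 and 9.27 in controls (0.39 ± 0.19). Itgam, an integrin of microglia and macrophages, differed by 0.28 ± 0.14. Of 16 genes of myelinating oligodendrocytes 13 read higher, with a median of 0.15. All 16 lay at or above background, where 5024 of 11586 genes read higher. Fa2h, the hydroxylase of myelin lipids, and Klk6, a protease of oligodendrocytes, differed by 0.24 ± 0.11 and 0.35 ± 0.17. Of 18 astrocyte genes 8 read higher and 10 lower. Among them Aqp4, the water channel of astrocyte endfeet, was read at 9.49, 9.63 and 9.93 in shock-sensitive rats and at 9.10, 9.44 and 9.60 in controls (0.28 ± 0.093).

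**Figure D5:**
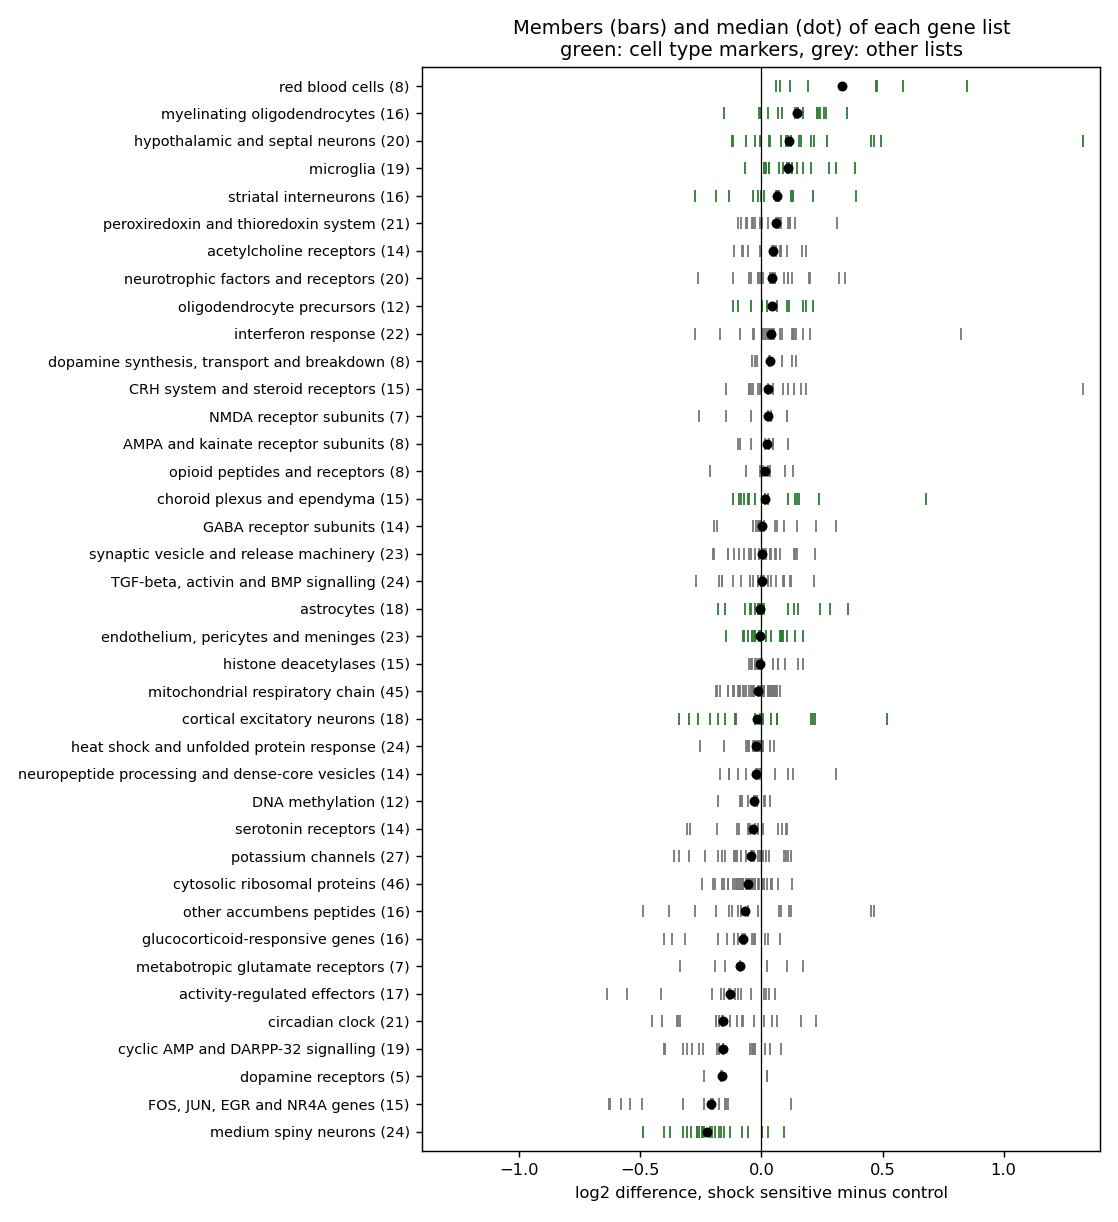
Log2 difference, shock sensitive minus control, for every measured member of 39 gene lists, with each member as a bar, the list median as a dot and cell type markers in green. Medians run from −0.23 for medium spiny neurons and −0.21 for the FOS, JUN, EGR and NR4A genes to 0.33 for red blood cells.

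Transmitter systems of the accumbens gave small differences. In the opioid list 5 of 8 genes read higher and 3 lower, with a median of 0.016, 0 at an unadjusted p under 0.05 and 0 after adjustment in limma. Without both arrays of low striatal content the median of the opioid peptides and receptors was −0.064. Pdyn, the dynorphin precursor, was read at 11.33, 11.96 and 12.72 in shock-sensitive rats and at 10.88, 11.90 and 13.50 in controls. The control range enclosed the shock-sensitive one, and the difference was 0.03 ± 0.40, with a sign that turned under several settings. Penk, the enkephalin precursor, was read at 14.48, 14.79 and 15.43 in shock-sensitive rats and at 14.43, 15.19 and 15.85 in controls, a difference of −0.21 ± 0.22, or −0.27 without both arrays. Oprk1, Oprm1 and Oprd1, the kappa, mu and delta receptors, differed by 0.0048, −0.0071 and −0.06, and these signs turned with single arrays left out.

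Of 5 dopamine receptor genes 3 read lower and 2 higher, with a median of −0.16. Drd1, Drd3 and, chosen after its values were seen, Drd2 differed by −0.24, −0.16 and −0.17. Drd4 had the highest difference of the list, 0.025. The Drd1 difference was 0.022 without shock-sensitive replicate 4, −0.51 without control replicate 1 and −0.25 without both. Of 19 genes of cyclic AMP and DARPP-32 signalling 16 read lower, with a median of −0.16 and 0 at an unadjusted p under 0.05 in limma. The median of cyclic AMP and DARPP-32 signalling was −0.026 without shock-sensitive replicate 4, −0.32 without control replicate 1 and −0.20 without both. It moved with the medium spiny neuron markers, but both lists hold Ppp1r1b, Adcy5, Pde10a, Rgs9, Arpp21 and Adora2a. Adora2a, the adenosine receptor of enkephalin neurons, differed by −0.40 ± 0.32, by −0.13 without shock-sensitive replicate 4, by −0.64 without control replicate 1 and by −0.37 without both. Arpp19, a phosphatase inhibitor gene, differed by −0.40 ± 0.20, and by −0.47 without both. Tac1, the substance P precursor, was chosen after its values were seen and differed by −0.49 ± 0.32, by −0.28 without shock-sensitive replicate 4, by −0.78 without control replicate 1 and by −0.57 without both.

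Fst, the gene of follistatin, an activin-binding protein, read lower in shock-sensitive rats than in either other group. It was read at 6.31, 6.47 and 6.50 in shock-sensitive rats and at 6.49, 6.60 and 6.72 in controls, a difference of −0.16 ± 0.07. Shock-resistant rats read 6.68 to 7.16, above every shock-sensitive array, and shock-sensitive minus shock-resistant was −0.46 (limma adjusted p = 0.0852, the smallest over all genes in that comparison). In the list of TGF-beta, activin and BMP signalling, Fst, Fstl1, Smad3 and, chosen after its values were seen, Acvr2b were lower than in controls at an unadjusted p under 0.05 (4 of 24, or 16.7%, beside 1.53% of all genes) and the median was 0.001. With 1 array left out that count for TGF-beta, activin and BMP signalling was 0 to 4, and it was 1 without both arrays of low striatal content. Against shock-resistant rats 0 genes passed after adjustment and 1415 had an unadjusted p under 0.05. Of the 59 genes that met the nominal criterion against controls, 13 had such a p against shock-resistant rats. The comparisons share the shock-sensitive arrays, so these counts are not independent.

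Chemosensory receptor and defensin genes, rarely transcribed in this tissue, lay almost all below background. Of 1128 olfactory receptor genes 0 lay at or above it. Among all genes below background, 8.05% lay on the higher side with an unadjusted p under 0.05 and 0.98% on the lower. At an unadjusted p under 0.05 the olfactory receptor family had 105 genes higher (9.31%) and 8 lower as deposited, 69 and 27 after quantile normalization, and 75 and 18 after centring. Of 38 beta-defensin genes 11 were higher (28.9%) and 0 lower, of 17 trace amine receptor genes 2 (11.8%) and 0, and of 148 vomeronasal receptor genes 15 (10.1%) and 3. The olfactory, vomeronasal and trace amine shares lay near that of all genes below background. The smallest p of all genes belonged to Or6c33 and Taar4, both with no overlap and both below background. Or6c33 was read at 4.83, 5.08 and 5.18 in shock-sensitive rats and at 4.29, 4.47 and 4.67 in controls (0.57 ± 0.098, limma adjusted p = 0.214). Taar4 was read at 4.22, 4.24 and 4.60 in shock-sensitive rats and at 3.88, 3.97 and 4.09 in controls (0.35 ± 0.061, limma adjusted p = 0.214).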

How the data were processed

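Total RNA of each accumbens was labelled as biotin-marked cDNA, starting from 100 ng, and read on 1 Affymetrix whole-transcript array per rat, per the labels' protocols. The deposited log2 values came from the authors' run of Affymetrix Expression Console, according to the submitters' processing notes; that they are log2 was taken from their range. The sources used here do not give the summarisation, normalization, software version, filters or a hybridisation batch.

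The table held 70580 features, 1738 of them controls. Symbols came from the platform annotation, updated through gene numbers to RefSeq names of GRCr8 (22077 features matched). Features with 1 symbol (23446) were kept, 505 with several and 44891 with none were left out, and for 1182 genes with several features the one with the highest mean was used. One limma 3.58.1 fit in R 4.3.3 over all 18 arrays, with group as the term and no block, gave differences, standard errors and p-values, adjusted by Benjamini-Hochberg over 22093 genes at 0.05. Low values were not filtered. P-values set each group difference against the spread between rats within groups, estimated over all 18 arrays. The 6 arrays per group limit the precision.

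Genes named were, leaving out provisional symbols, the 12 higher and 12 lower genes with the smallest p at or above background and at least 1.2-fold, 3 and 3 such genes below background, the 4 and 4 largest differences, all clock and opioid genes, the 3 smallest p of each other list, 4 microRNA genes, and 6 tissue markers. The text gives those its results turn on. Genes outside the rule are said to be chosen after their values were seen. Members, lists and rules were chosen with earlier results of these data known. Lists are described by counts and medians, with no set test. Alternatives were quantile normalization, median centring, other feature choices, a background filter, trend and robust variance, array weights, the 12 arrays alone, a replicate block, a medium spiny neuron covariate, other folds, and arrays left out. The fit was tested on simulated data. Promoter and microRNA sequences are RefSeq's. Figures used Python 3.11.15 and matplotlib 3.10.9.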

Additional observations from a re-analysis of the deposited data

Results flagged for a closer look

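For every gene named by a rule or afterwards, the highest or lowest array of each group of 6 was looked at for a gap to the nearest array that took up most of the group's range. Chance marks about 1 in 20 groups, and 57 of 422 were marked. All values are log2.

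Control replicate 1 held 26 of the 57. It was the lowest control for Npas2 (11.09), Cry2 (9.38), Dbp (9.33), Hlf (10.68), Oprd1 (6.42), Drd1 (11.27), Homer1 (11.76), Arpp19 (12.63), Adora2a (10.69), Grin2a (9.50), Grin2b (13.27), Gabrd (6.76), Kcnh3 (7.78), Kcnab1 (13.14), Smad3 (7.26), Unc13a (10.365), Camk2a (16.42), Tac1 (11.29) and Vav3 (8.44). It was the highest control for St6gal1l (5.56), Oxt (10.59), Oprl1 (9.62), Gabrq (8.14), Txnrd1 (9.79), Ndufa2 (7.81) and Avp (6.70). Shock-sensitive replicate 4 was in its own group the lowest for Grin2a (9.60), Kcnh3 (7.54) and Unc13a (10.20), and the highest for Th (6.20), Trh (7.29) and Avp (7.19). For Grin2a, Kcnh3, Unc13a and Avp these arrays, which had the lowest medium spiny neuron markers, stood apart on the same side of their groups.

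Control replicate 2 was the highest control for the activity-regulated genes Egr1 (12.25), Egr2 (8.20), Nr4a3 (8.59), Fosb (7.04) and Dusp6 (7.06), and for Dnajb5 (9.83). Control replicate 3 was highest for Ist1 (10.195) and control replicate 4 for Rpl6 (12.72), and control replicate 5 was lowest for Ido1 (3.72).

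Shock-sensitive replicate 1 was lowest in its group for Isl1 (7.84) and Fos (5.55). Shock-sensitive replicate 2 was highest for Csnk1d (10.14) and Htr1b (8.91) and lowest for Col1a1 (5.94). Shock-sensitive replicate 3 was lowest for Rpl34l1 (7.09), Scg5 (12.88) and Rps25 (10.04), and highest for Vom1r81 (4.33), Drd3 (8.27), Nmu (5.79) and Ido1 (4.08). Shock-sensitive replicate 5 was highest for Hba-a3 (11.54), Hdac7 (6.02) and Mir181b1 (8.70), and shock-sensitive replicate 6 for Fabp7 (10.755).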

How the results depend on the processing

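Under the alternatives other than arrays left out, 0 genes passed limma's adjusted threshold against controls, and with 1 array left out 0 to 1 did (Ist1, without control replicate 3). At an unadjusted p under 0.05 genes higher numbered 1008 as deposited, 578 after quantile normalization, 542 after centring, 149 with genes at or above background alone, 1624 with array weights, and 767 to 1340 with 1 array left out. Genes lower numbered 337 as deposited, 546 after centring, 206 with genes at or above background alone, 703 with array weights, and 273 to 636 with 1 array left out, where 636 was without control replicate 1 and 535 without shock-sensitive replicate 2. The nominal criterion took 59 genes as deposited, 149 with array weights, 107 without control replicate 1 and shock-sensitive replicate 4 together, 244 at 1.2-fold, 12 at 1.5-fold, and 53 to 171 with 1 array left out (171 without control replicate 1, 112 and 103 without shock-sensitive replicates 1 and 2). Of the named genes 0 passed against shock-resistant rats, 1 after centring (Fst), and 0 to 1 with 1 array left out (Ist1, without control replicate 3). The cause of these moves was not tested.

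Replicate numbers are shared by the groups. Deviations of same-numbered arrays correlated at −0.30, 0.17, 0.09, −0.11, 0.05 and 0.08, and 1 control of 6 matched its own number best. Such deviations also hold differences in tissue content, so they cannot show whether same-numbered arrays shared a batch. With the replicate block 0 genes passed, 958 genes read higher and 313 lower at that unadjusted p, and 64 met the nominal criterion.

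Small differences changed sign. With the medium spiny neuron covariate Npas2 was 0.088, Pnoc −0.016, Oprd1 0.069, Oprl1 −0.024, Drd1 0.018, Ppp1r1b 0.030 and Mir29c −0.018. With array weights Clock was −0.015, Pdyn −0.024, Oprk1 −0.073 and Mir29c −0.0087. After centring Clock was −0.013, Oprk1 −0.020 and Mir29c −0.0029, and after quantile normalization Pomc was −0.0046 and Dbh −0.0051. Without control replicate 1 and shock-sensitive replicate 4 together Clock was −0.011, Pdyn −0.057, Oprk1 −0.072 and Dynlrb2 0.045. With 1 array left out the ranges were −0.017 to 0.039 for Clock, −0.22 to 0.098 for Npas2, −0.19 to 0.34 for Pdyn, −0.0076 to 0.28 for Pnoc, −0.11 to 0.14 for Oprk1, −0.075 to 0.037 for Oprm1, −0.27 to 0.0019 for Oprd1, −0.050 to 0.28 for Oprl1, −0.51 to 0.022 for Drd1, −0.23 to 0.026 for Dynlrb2, −0.53 to 0.0059 for Ppp1r1b, −0.45 to 0.028 for Npas4, −0.045 to 0.091 for Mir29c, −0.021 to 0.27 for Mir9-3 and −0.0052 to 0.27 for Avp. Of the other values of named genes 4747 kept their direction and their side of the threshold, and 1 passed it (Ist1, without control replicate 3). Values below background carry the least information on these arrays.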

Other observations

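Single genes outside the lists described above also met the nominal criterion, and all were chosen after their values were seen. Fabp7, a brain lipid-binding protein of radial glia and astrocytes, was read at 9.54, 9.91 and 10.76 in shock-sensitive rats (lowest, median and highest) and at 8.85, 9.15 and 9.95 in controls, a difference of 0.69 ± 0.20 (SE, limma adjusted p = 0.572). Fads1, a fatty acid desaturase gene, differed by 0.38 ± 0.12, and its groups overlapped slightly, at 12.60 to 12.97 and 12.17 to 12.66. Igfbp5, a binding protein of insulin-like growth factors, differed by 0.53 ± 0.17 from controls and by 0.63 from shock-resistant rats. Fzd5, a WNT receptor gene, differed by 0.45 ± 0.14 and Mpeg1, a pore-forming gene of macrophages and microglia, by 0.83 ± 0.35. Mc4r, a melanocortin receptor gene, differed by −0.38 ± 0.17.

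Other lists gave few members at an unadjusted p under 0.05. Over all 22093 genes 12574 read higher and 9519 lower, whatever their p. In the interferon response list 17 of 22 genes read higher, and 7 of the 22 lay at or above background. The list median of 0.039 lay near the 0.037 of all genes below background. Ifi27, an interferon-induced gene, was read at 8.08, 9.46 and 10.50 in shock-sensitive rats and at 7.84, 8.59 and 9.24 in controls (0.82 ± 0.34). In the DNA methylation list 9 of 12 read lower, among them Mbd2, a reader of methylated DNA, at 12.47, 12.69 and 12.77 in shock-sensitive rats and 12.69, 12.87 and 12.90 in controls (−0.18 ± 0.052). For the 46 cytosolic ribosomal proteins the median was −0.055 and turned to 0.030 without shock-sensitive replicate 3, whose list mean was 10.79 against 11.22 to 11.49 in its group. For the 45 genes of the mitochondrial respiratory chain the median was −0.013 and turned to 0.052 without the same array. NMDA, AMPA and kainate, GABA and acetylcholine receptor lists had 0 members at that limma p and 0 after adjustment, with medians of 0.027, 0.023, 0.004 and 0.049. Among growth factors Nrg3, a neuregulin gene, differed by 0.20 ± 0.077 and Fgf2, a fibroblast growth factor gene, by −0.26 ± 0.12.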
